A study of Mus musculus with 4 samples.

Results

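The genes described here are the 5 mucin core genes Muc1, Muc2, Muc4, Muc13 and Muc20, chosen by symbol, of which 4 had exons in the deposited reference and were counted among 20942 condensed genes, a condensed gene being all exons of all isoforms of a gene merged into exon blocks. Reads were counted in 4 SOLiD libraries from small intestine and colon tissue of untreated C57BL/6 mice aged 9 to 10 weeks, with no genotype or treatment that differs between the groups. The labels give total tissue, and the study's methods name jejunum and distal colon as the parts taken. From each tissue, polyadenylated RNA went into a cDNA-fragmented library made by SMART synthesis, in which cDNA is primed from the poly-A tail and fragmented afterwards. A second library of each tissue was made with a whole transcriptome kit, in which RNA is fragmented and adaptors are ligated with strand kept, and is labelled as depleted of ribosomal RNA, although polyadenylated RNA is described for this kind of protocol in the study. There is 1 library per tissue and protocol, the study states that both tissues came from the same individuals but which animals are behind a library is not given, and the intervals printed here are 95% intervals that cover counting error alone, so no difference between tissues was tested against variation between mice. The libraries held 22484041 and 24798934 uniquely placed reads (small intestine and colon, cDNA-fragmented) and 2035386 and 3478387 (small intestine and colon, rRNA-depleted). Values below are given in this order of libraries throughout. The reads counted here are placements of 35 colors on exons. The study itself reports more uniquely mapped reads for both kinds of library, mapped to the whole genome, with longer reads for RNA fragmentation. Its numbers are somewhat higher for cDNA fragmentation and many times higher for RNA fragmentation. For RNA fragmentation it reports more reads in small intestine than in colon, the reverse of the order here. The cause of these differences was not tested.

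Mucins are large glycoproteins whose serine- and threonine-rich tandem repeats carry dense O-linked glycans. Muc2 is the gel-forming mucin that goblet cells secrete to build intestinal mucus, whereas Muc1, Muc4 and Muc13 span the membrane of epithelial cells and Muc20 is a membrane-associated mucin. The repeats matter for sequencing, because a short read that fits several repeat units equally well has no unique placement and had been removed by the authors.

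The repeat units of 3 members are printed to show how alike their copies can be. In each, the place where 3 consecutive units differ least was chosen, so they are not typical of the whole repeat. The gene Muc13 lies at chr16:33794123-33820013 (mm9, plus strand), and its coding exon at chr16:33799019-33799663 holds an 81-base unit, which corresponds to 27 residues and is repeated about 7.2 times with 98.2% of bases identical from one unit to the next. The 3 consecutive units of chr16:33799087-33799329 are identical, and one of them is shown, since a read inside it fits all 3.
Muc13 unit: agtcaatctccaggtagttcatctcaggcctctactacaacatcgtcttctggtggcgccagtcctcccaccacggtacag

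In Muc4, at chr16:32735972-32782476 (mm9, plus strand), the second exon spans chr16:32750283-32757210 and is 6928 bases long, with a 372-base unit repeated about 16.8 times and 54.7% of bases identical at this spacing over the whole repeat. These units are more alike in some stretches than in others. The first 120 bases of 3 consecutive units (chr16:32752190-32752309, chr16:32752562-32752681 and chr16:32752934-32753053, plus strand) are shown, and capitals mark bases that differ from the unit printed first.
Muc4 unit 1: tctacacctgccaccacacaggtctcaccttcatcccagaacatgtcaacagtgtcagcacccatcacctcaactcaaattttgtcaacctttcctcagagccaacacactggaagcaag
Muc4 unit 2: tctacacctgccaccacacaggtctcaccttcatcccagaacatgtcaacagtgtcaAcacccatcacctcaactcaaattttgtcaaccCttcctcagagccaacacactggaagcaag
Muc4 unit 3: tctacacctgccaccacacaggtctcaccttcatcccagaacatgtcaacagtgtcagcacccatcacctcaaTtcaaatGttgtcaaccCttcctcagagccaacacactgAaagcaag

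Muc1, at chr3:89032974-89037291 (mm9, plus strand), has a 60-base unit of 20 residues in its 1304-base exon at chr3:89033833-89035136. Over the whole repeat 51.2% of its bases are identical at this spacing. The 3 consecutive units at chr3:89034227-89034286, chr3:89034287-89034346 and chr3:89034347-89034406 are given with capitals for bases that differ from the unit printed first.
Muc1 unit 1: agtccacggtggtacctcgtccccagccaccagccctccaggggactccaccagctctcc
Muc1 unit 2: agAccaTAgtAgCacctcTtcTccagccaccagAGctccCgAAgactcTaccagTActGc
Muc1 unit 3: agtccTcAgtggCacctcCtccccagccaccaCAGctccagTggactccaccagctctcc
The second of these units differed from the first at 16 bases and the third at 8 bases, of 60. The stretches of Muc4 shown differed at 2 and 4 bases of 120, and are among the more alike parts of its repeat. In the repeat exon of Muc1, 34.2% of the 35-base windows have another window within 3 mismatches in the same gene, against 74.3% in the long exon of Muc4 and 90.3% in the repeat exon of Muc13.

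Muc13 was by far the most abundant of the counted mucins and the only member with a high level in all libraries. It gave 47146, 33172, 3887 and 7419 reads on 2969 exonic bases, or 706, 451, 643 and 718 RPKM (reads per kilobase of exon and per 1000000 uniquely placed reads). The level in the colon cDNA-fragmented library was the lowest of the 4, and the other 3 lay within a narrow range. Muc13 ranked 128, 260, 73 and 63 among all condensed genes by RPKM, within the top 1.24% in every library.

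The tissue difference of Muc13 pointed in opposite directions by protocol. By cDNA fragmentation the colon level was 0.638 times that of small intestine (0.629 to 0.647). By the rRNA-depleted pair it was 1.12 times that of small intestine (1.07 to 1.16). The direction in the rRNA-depleted pair depended on the setting. Its log2 ratio of 0.16 became -0.18 after normalization by the median of ratios, -0.42 with start points counted and 0.04 on the last 1000 exonic bases. Neither ratio was near 3-fold, and the difference between the protocols was not tested because each rests on a single library per tissue. Muc13 averaged 12.6, 9.27, 5.63 and 8.41 reads per start point. Whether reads that share a start point are copies of one molecule was not tested. Where they are, the counting intervals of Muc13 understate the error. In the cDNA-fragmented libraries 73.9% and 70.8% of all 35-base window positions, both strands counted, already had a read. In the rRNA-depleted libraries 27.3% and 34.9% of the sense positions had one. There the 10 fullest start points held 24% and 20.5% of the Muc13 reads, against 1.15% and 1.18% in the cDNA-fragmented libraries. These positions include windows with an exact copy, 444 of them in the repeat exon, which can hold no read. The shares of the usable positions were therefore higher.

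Muc4, a very large mucin with EGF-like domains that interacts with the receptor ErbB2, was higher in colon by both protocols. It gave 294, 1306, 131 and 540 reads on 10899 exonic bases, or 1.2, 4.83, 5.91 and 14.2 RPKM. Both colon libraries lay above the small intestine library of the same protocol, although the small intestine level by rRNA depletion exceeded the colon level by cDNA fragmentation. The ratio of colon to small intestine was 4.03 (3.55 to 4.59) by cDNA fragmentation and 2.41 (1.99 to 2.94) in the rRNA-depleted pair. Within a tissue, the rRNA-depleted library gave a Muc4 level 4.92 times (3.97 to 6.07) that of the cDNA-fragmented library in small intestine and 2.95 times (2.66 to 3.26) in colon. On the last 1000 exonic bases alone these ratios were 1.40 (0.831 to 2.23) and 0.586 (0.449 to 0.754), so the direction in colon depended on the stretch counted, and Muc4 levels cannot be compared across protocols.

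Muc1, a transmembrane mucin of many glandular epithelia whose cytoplasmic tail binds β-catenin, was low, with most of its reads in the colon libraries. It gave 7, 156, 1 and 10 reads on 2235 exonic bases, or 0.139, 2.81, 0.220 and 1.29 RPKM. By cDNA fragmentation the colon level was 20.2 times that of small intestine (9.58 to 51.1). On the last 1000 exonic bases it was 9.97 times (4.61 to 25.6), from 77 reads against 7. In the rRNA-depleted pair the ratio was 5.85 from 1 read against 10, and its interval of 0.832 to 254 includes equality.

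Muc20, a mucin that binds the receptor Met and whose counted blocks lie at chr16:32785870-32797521 (mm9, minus strand), was at the limit of detection. It gave 1, 11, 0 and 1 reads on 2555 exonic bases outside the block that it shares with Muc4, or 0.0174, 0.174, 0 and 0.113 RPKM. Where no read was found, 3 reads would have been 0.577 RPKM. The cDNA-fragmented pair gave a ratio of 9.97 of colon to small intestine from 11 reads against 1, with an interval of 1.45 to 429. No ratio is given for the rRNA-depleted pair.

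The order Muc13, Muc4, Muc1 by RPKM held in each of the 4 libraries, with Muc20 below Muc1 in 3 of them. The ratio of Muc1 to Muc20 was 8.0 (1.03 to 361) in the small intestine and 16.2 (8.81 to 33.1) in the colon cDNA-fragmented library, and 11.4 (1.63 to 496) in the colon rRNA-depleted one, on 1, 11 and 1 reads of Muc20. With 1 read against 0, they could not be ranked in the small intestine rRNA-depleted library. The closest other neighbours were Muc4 and Muc1 in the colon cDNA-fragmented library, at a ratio of 1.72 (1.45 to 2.04). In bulk tissue, fewer cells of a type and less RNA per cell cannot be told apart for any of these levels.

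**Figure D1:**
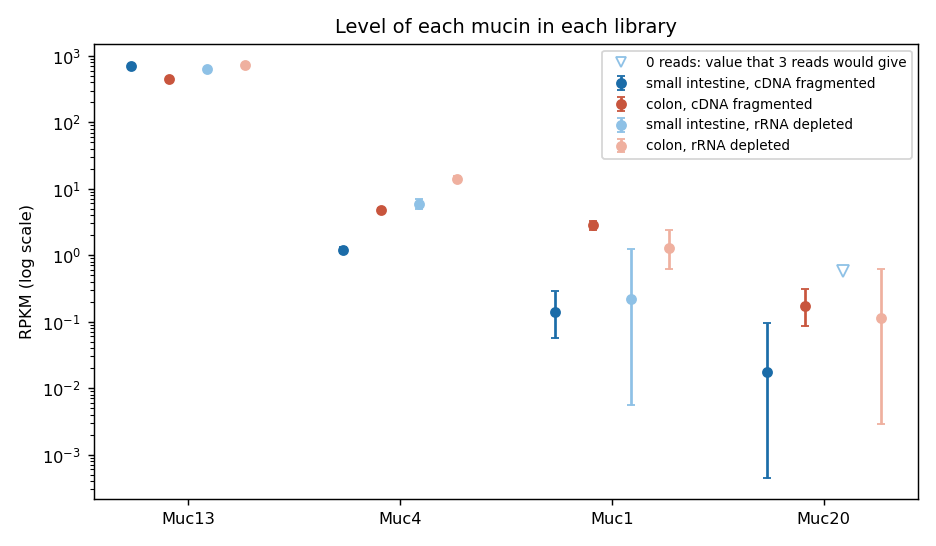
Level of each counted mucin in each library, in RPKM on a log axis, with 95% Poisson intervals on the reads as bars and an open triangle at the value of 3 reads where none was found. Muc13 lies between 451 and 718 RPKM in all 4 libraries, and Muc4 lies between 1.2 and 14.2. Muc1 lies below Muc4 in each library, and Muc20 lies at no more than 0.174 RPKM in the 3 libraries in which it had reads.

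The study counts a gene as different when its level in one tissue is over 3 times that in the other after 1 unit has been added to the divisor, and this rule was applied here with 1 RPKM added among genes present in both tissues (over 0.01 RPKM and at least 2 start points). Of the 4 counted mucins, 3 were present in both tissues by cDNA fragmentation (Muc1, Muc4 and Muc13) and 2 in the rRNA-depleted pair (Muc4 and Muc13). None passed the rule in either direction by either protocol. Among all genes, 2.81% of 15163 passed as higher in small intestine and 3.24% as higher in colon by cDNA fragmentation, and 3.86% and 6.37% of 13125 in the rRNA-depleted pair. These were 426 and 491 genes, and 507 and 836. The balance turned towards small intestine with the median of ratios, to 560 and 376 genes, and 652 and 470. With the added RPKM the ratio was 2.20 and 2.06 for Muc4 (cDNA-fragmented and rRNA-depleted pair) and 2.47 for Muc1 by cDNA fragmentation.

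The size of the added value mattered for these calls by cDNA fragmentation, where Muc4 and Muc1 were at 1.2 and 0.139 RPKM in small intestine. With 0.1 RPKM added, Muc1 (ratio 11.8) and Muc4 (3.72) passed as higher in colon by cDNA fragmentation, where 7.71% of all genes passed. In the rRNA-depleted pair, where 11.4% of all genes passed, Muc4 did not (2.37), and Muc1 was not assessed because its single small intestine read did not count as present. When start points were counted in place of reads, Muc1 passed by cDNA fragmentation beside 3.38% of all genes. When only the last 1000 exonic bases were counted, Muc4 passed beside 3.87%.

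All genes together were shifted towards colon, which bears on these ratios. Over genes present in both tissues, the median of the log2 colon to small intestine ratios was 0.34 by cDNA fragmentation and 0.33 in the rRNA-depleted pair, after 0.1 RPKM had been added. Normalization by the median of ratios lowered every log2 ratio by 0.32 and 0.34. Muc4 then remained higher in colon by both protocols (log2 ratio 1.69 and 0.93), whereas Muc13 became lower in colon by both (-0.97 and -0.18). The shift is the same for every gene and exceeded the Muc13 ratio of the rRNA-depleted pair. Counting start points gave -0.42 in that pair. There 27.3% and 34.9% of all sense window positions of Muc13 already held a read, windows with an exact copy included.

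**Figure D2:**
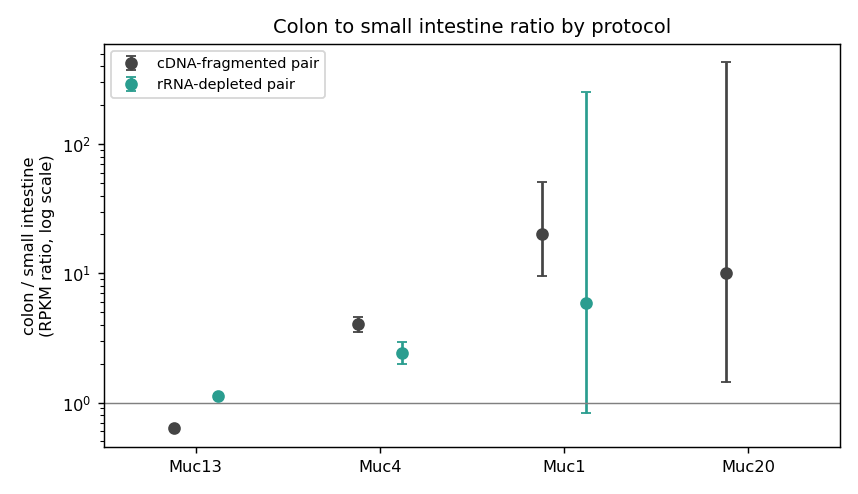
Ratio of the colon RPKM to the small intestine RPKM of each mucin (log axis) in the cDNA-fragmented pair and the rRNA-depleted pair, with exact 95% counting intervals as bars and equality as a line. Muc13 lies at 0.638 and 1.12 on opposite sides of equality, and Muc4 at 4.03 and 2.41 above it.

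Coverage along Muc4, the longest of the counted transcripts, differed by protocol. In Muc4, 91.2% (87.4 to 93.9) and 94.6% (93.2 to 95.7) of reads lay in the 3' 50% of the exonic length in the cDNA-fragmented libraries. The shares were 80.9% (73.3 to 86.7) and 73.5% (69.6 to 77.1) in the rRNA-depleted libraries. The last 1000 bases are 9.18% of the length and held 53.7% and 61.5% of the cDNA-fragmented reads, but 15.3% and 12.2% of the rRNA-depleted ones. Both cDNA-fragmented libraries lay above both rRNA-depleted libraries in each measure.

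Outside the repeats, the last 2 exon blocks of Muc4 were compared with the long exon and with the first exon. Density was calculated on windows of 35 bases that have no other window within 3 mismatches in the same gene, here called windows without a near copy. In the last 2 exon blocks the density was 9.30, 42.2, 9.68 and 19.2 reads per 1000 windows and 1000000 placed reads. In the long exon it was 0.953, 2.05, 7.48 and 30.7. The last blocks were thus covered 9.76 (6.77 to 14.4) and 20.6 (16.5 to 26.0) times as densely as the long exon in the cDNA-fragmented libraries, and 1.29 (0.613 to 2.59) and 0.625 (0.440 to 0.872) times as densely in the rRNA-depleted ones. The first exon of Muc4 held only 1, 7, 5 and 6 such reads, and the last blocks were 111 (19.7 to 4433), 79.7 (38.5 to 199), 2.10 (0.703 to 7.52) and 5.92 (2.51 to 17.0) times as dense as it, with an interval that includes equality in the small intestine rRNA-depleted library.

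The tissue ratio of Muc4 depended on the stretch measured. By cDNA fragmentation colon exceeded small intestine 2.15-fold (1.45 to 3.23) in the long exon, 4.35-fold (3.49 to 5.46) over the 18 counted blocks that follow and 4.54-fold (3.78 to 5.49) in the last 2. In the rRNA-depleted pair the order was the other way, with 4.10-fold (2.73 to 6.38) in the long exon, 2.01-fold (1.53 to 2.67) over the 18 blocks and 1.98-fold (1.05 to 4.01) in the last 2. Colon was higher in each of these 3 stretches by both protocols, so the direction did not rest on any one of them. In the first exon the counts were too low to tell the tissues apart.

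Muc13 was covered more evenly. The 3' 50% of its length held 69.2% (68.8 to 69.6), 75.2% (74.8 to 75.7), 69.3% (67.8 to 70.7) and 67.0% (66.0 to 68.1) of reads, with no separation of the protocols. When the length was cut into 10 equal parts, the first 3 held few reads in every library, between 0.283% and 3.49% each. The repeats fill most of parts 2 and 3, whereas part 1 is mostly the first and second exon, which hold no window with a near copy. The second exon was itself sparse, since outside near copies the last exon was 4.87, 4.68, 6.02 and 2.04 times as dense.

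**Figure D3:**
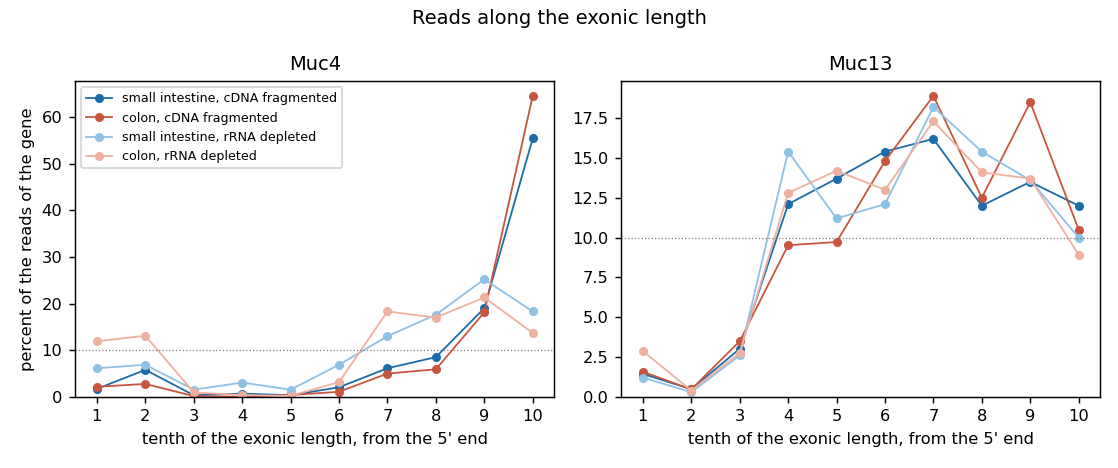
Percent of the reads of Muc4 (left) and Muc13 (right) in each of 10 equal parts of the exonic length from the 5' end, for the 4 libraries, with a dotted line at the 10% that even coverage would give. The last part of Muc4 held 55.4% and 64.5% of reads in the cDNA-fragmented libraries and 18.3% and 13.7% in the rRNA-depleted ones, and parts 3 to 5 of Muc4 and the first 3 of Muc13 are nearly empty.

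The stretches of Muc13 differed in their tissue ratio too. The annotated first exon held 1, 0, 0 and 0 reads, and the second, at chr16:33794515-33794661, held 560, 442, 42 and 194. By cDNA fragmentation the ratio of colon to small intestine was 0.745 (0.653 to 0.849) in the second exon, 0.715 (0.657 to 0.778) in the repeat exon, 0.553 (0.541 to 0.565) over the 9 blocks that follow and 0.715 (0.701 to 0.729) in the last exon. Small intestine was higher in each of these. In the rRNA-depleted pair the ratios were 3.0 (2.10 to 4.40), 1.23 (0.954 to 1.59), 1.18 (1.12 to 1.25) and 1.02 (0.963 to 1.08) in the same order. The high ratio of the second exon came with few start points, since 113 of its 194 colon reads lay on 3 start points and 81 on a single one.

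Few reads lay on the repeats in every library. In the repeat exon of Muc13, 444 of 611 windows have an exact copy among all exon blocks and no read lay on them, while 552 have a near copy and 59 do not. The windows without a near copy held 2114, 1666, 158 and 330 reads per 100 windows, and those with one held 93.3, 73.9, 4.35 and 10.3. Exact copies can hold no read, because reads with several placements had been removed. On the 108 windows with a near copy but no exact one, the density was 477, 378, 22.2 and 52.8 reads per 100 windows, so windows without a near copy were 4.43, 4.41, 7.09 and 6.26 times as dense. Outside the near copies the density of the repeat exon was close to that of the last exon, which was 1.05 (0.992 to 1.11), 1.05 (0.986 to 1.12), 1.25 (1.01 to 1.56) and 1.04 (0.898 to 1.21) times as dense.

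In the long exon of Muc4, 5121 of 6894 windows have a near copy and 1853 an exact one. Only 11, 36, 17 and 46 reads lay on the near-copy windows, of 49, 126, 44 and 235 reads wholly inside the exon. Reads per 100 windows outside the near copies were 6.37, 4.61, 2.93 and 7.57 times those on the 3268 windows with a near copy but no exact one. In the repeat exon of Muc1 the colon cDNA-fragmented library gave 8.73 reads per 100 windows outside the near copies and 2.93 on the 376 windows with a near copy but no exact one.

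**Figure D4:**
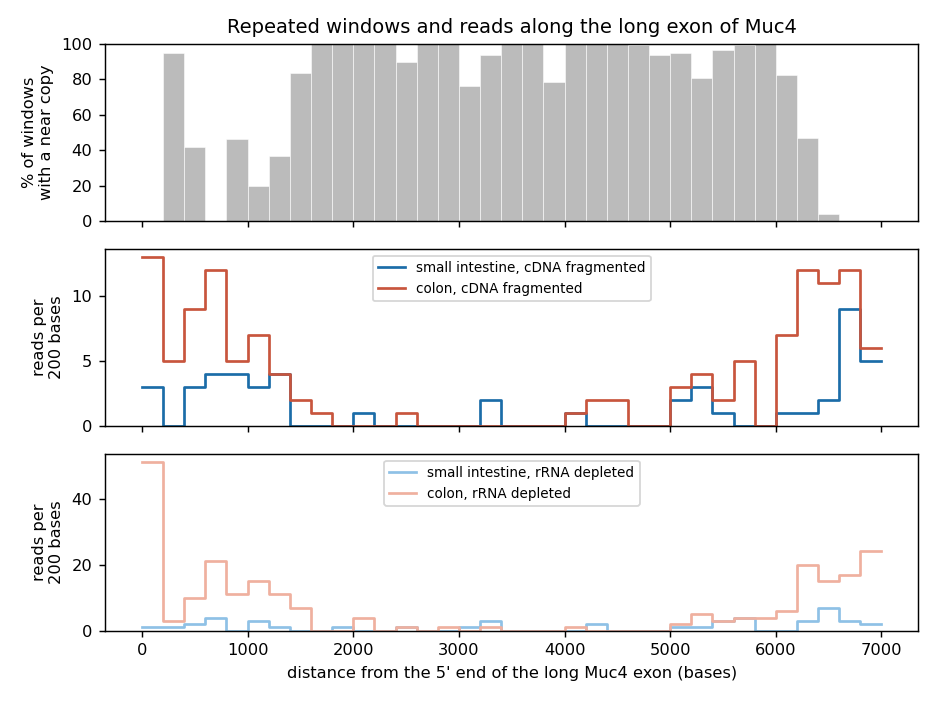
The long exon of Muc4 in bins of 200 bases from its 5' end, with the percent of 35-base windows that have a near copy in the same gene (top) and the reads per bin in the cDNA-fragmented (middle) and rRNA-depleted libraries (bottom). Between 1600 and 5000 bases, where at least 76.5% of windows in each bin have a near copy, no bin holds more than 4 reads, whereas the first 200 bases hold up to 51.

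The reads of the low members were placed as follows. In colon by cDNA fragmentation, 59.0% (51.1 to 66.4) of the 156 Muc1 reads lay in the 3' 50% of the length, and 84 lay in the repeat exon and 45 in the last exon. In small intestine by cDNA fragmentation the repeat exon held 0 of the 7 Muc1 reads and all 7 lay in the last 1000 bases. In the rRNA-depleted pair 1 of 1 and 7 of 10 reads lay in the repeat exon and none in the last exon. Of the 11 Muc20 reads in colon by cDNA fragmentation, 7 lay in its block at the 3' end outside the shared stretch and 4 in the exon with its 27-base repeat unit. These 11 reads had 9 start points, and those of Muc1 in the same library had 134, so neither rested on a single pile of reads.

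Dividing by the full exonic length gave lower values for Muc4 and Muc13 than dividing by windows without a near copy. The same held for Muc1 (2.815 against 3.715) and Muc20 (0.1736 against 0.1938) in the colon cDNA-fragmented library. An exon without near copies also has fewer windows than bases, as the first exon of Muc13 with 62 windows on 96 bases. The part of the repeats in the lower values was not tested. With only windows without a near copy as the length, Muc4 was at 2.43, 10.1, 11.1 and 27.2 reads per 1000 windows and 1000000 placed reads, and Muc13 at 1037, 662, 958 and 1069. The tissue ratios of Muc4 and Muc13 stayed within their counting intervals under this change.

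Muc20 and Muc4 overlap on opposite strands. The terminal exon of a Muc20 isoform at chr16:32777505-32779232 (mm9, minus strand, 1728 bases) covers 3 Muc4 exons that make up 22% of its bases, and its 37, 225, 11 and 29 reads were kept out of both genes. All 11 and 29 reads of the stranded rRNA-depleted libraries lay on the Muc4 strand, which leaves 0 for Muc20. In the cDNA-fragmented libraries, which do not keep strand (48.3% and 48.2% of all reads were sense), 94.6% and 94.2% of the reads lay inside the 3 Muc4 exons. Assigned to Muc20, these reads would have outnumbered its other reads in each library.

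Outside the shared block, no antisense reads were found on Muc4 and Muc13 where strand was kept. The stranded reads of that block lie opposite to Muc20 and were not counted here. Muc1 (1 and 10 reads) and Muc20 (0 and 1 reads) had too few reads in these libraries to tell. In the rRNA-depleted libraries, in which 98.6% of all reads were sense, 0 of 131 and 0 of 540 reads of Muc4 were antisense. The upper limits of these shares were 2.85% and 0.706%. For Muc13 the antisense reads were 0 of 3887 and 0 of 7419, with upper limits of 0.0987% and 0.0518%.

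Muc2 could not be measured from these files. It lies at chr7:148876268-148940595 (mm9, plus strand), with 49 exons and 7041 exonic bases in the GENCODE M1 annotation, and none of these exons is among the exon blocks to which the authors matched the reads. The gene span holds 40200 unknown bases in mm9, of which 39999 lie in the largest annotated intron, so the annotated exons may not be complete. In the exon row used as reference, the last block of Muc6 is followed by the first block of Muc5ac after a spacer of 50 bases. As a check, the colors of all deposited reads were compared with the colors of the Muc2 exons, and 0 reads in each of the 4 libraries were equal, whereas 17221, 11297, 1482 and 2897 were equal to Muc13. Only reads with a placement in the reference had been deposited, so this says nothing about the level of Muc2 in either tissue.

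Of 12 other mucins and mucin-like genes listed, 8 had exon blocks, and 5 of these had at most 5 reads in each library. The gel-forming mucins of stomach and airway were all low, with 0, 1, 0 and 1 reads for Muc5ac, 0, 1, 2 and 1 for Muc5b, and 1, 2, 5 and 4 for Muc6. No read was found for Muc15, a membrane mucin. The sialomucin Cd164 was well above these, at 76.9, 66.0, 91.8 and 126 RPKM, with a ratio of colon to small intestine of 0.858 (0.824 to 0.893) by cDNA fragmentation and 1.37 (1.23 to 1.52) in the rRNA-depleted pair. Among the listed mucin-like surface proteins with at least 20 reads in both cDNA-fragmented libraries, the cell adhesion molecule Mcam had the highest ratio of colon to small intestine by cDNA fragmentation (2.25, 1.93 to 2.62; rRNA-depleted 2.21, 1.21 to 4.32). Endomucin (Emcn) had the lowest (0.696, 0.590 to 0.819), but in the rRNA-depleted pair its ratio was 2.08, with an interval of 0.971 to 4.96 that includes equality.

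Over all genes present in both tissues, 65.9% were higher in colon by cDNA fragmentation and 62.4% in the rRNA-depleted pair, and the counts of lists are to be read against these shares.

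Of the genes of mucin assembly and goblet cell secretion, all 9 were higher in colon by cDNA fragmentation, with 3 past the 3-fold rule towards colon (3.24% of all genes) and a median log2 ratio of 1.38, against 0.34 for all genes. In the rRNA-depleted pair 7 of the 8 present in both tissues had a ratio above equality, of which the lectin Zg16 (1.0, 0.955 to 1.05) had an interval that includes it. Fcgbp, a mucus protein that binds Muc2, was lower at 0.614 (0.598 to 0.630), against 1.80 (1.75 to 1.84) by cDNA fragmentation. With the median of ratios 5 of 8 were higher in colon, as Zg16 and Tff3 then also lay below equality, beside 6568 of all 13125 genes, and by cDNA fragmentation all 9 were, beside 52.9%. In the rRNA-depleted pair 4 passed the rule (6.37% of all genes) and the median was 1.81, against 0.33. The ratio by cDNA fragmentation was highest for Spdef, a transcription factor of goblet cell maturation (7.06, 5.60 to 9.02; rRNA-depleted 9.66, 6.83 to 14.1). It was lowest for the trefoil peptide Tff3 (1.31, 1.28 to 1.33; rRNA-depleted 1.18, 1.09 to 1.27), among genes with at least 20 reads in both libraries. Outside this limit, Retnlb, a secreted goblet cell protein that was chosen after its values were seen, had 4, 4095, 0 and 237 reads, a ratio of 928 (362 to 3408) by cDNA fragmentation.

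The enzymes of mucin O-glycans listed here start, branch and extend the glycans, and some cap or sulfate them (Fut2, St3gal1, St6galnac1, St6galnac2 and Chst4). Of 20, 19 were present in both tissues by cDNA fragmentation, of which 16 were higher in colon, beside 65.9% of all genes. Towards colon 4 passed the rule, beside 3.24% of all genes, and the median log2 ratio was 0.88, against 0.34. By the other protocol 16 of 18 were higher in colon, beside 62.4%, with 8 past the rule, beside 6.37%, and a median of 1.66, against 0.33. With the median of ratios 14 of 19 and 15 of 18 were higher in colon, beside 8024 of all 15163 and 6568 of all 13125 genes. Fut2, which adds fucose to the ends of glycans, was highest by cDNA fragmentation (40.1, 29.9 to 54.9), and Gcnt4, a core 2 branching enzyme, was the lowest at 0.116 (0.0944 to 0.141). Gcnt4 was the single gene of this list past the rule towards small intestine, by both protocols.

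Among 7 partners of membrane mucins, 6 and 5 were higher in colon beside 65.9% and 62.4% of all genes, and 1 passed the rule towards colon by each protocol, beside 3.24% and 6.37% of all genes. The median log2 ratios were 0.41 and 0.57, against 0.34 and 0.33, and with the median of ratios 5 and 4 of the 7 were higher. The highest by cDNA fragmentation was galectin-3 (Lgals3), a lectin that binds mucin glycans, at 3.57 (3.43 to 3.71; rRNA-depleted 4.67, 4.2 to 5.21). The lowest was Met, the receptor that Muc20 binds, at 0.632 (0.567 to 0.703), whereas in the rRNA-depleted pair it was at 1.09 (0.936 to 1.28), which includes equality. In that pair the lowest of the list was the membrane protease St14 at 0.376 (0.305 to 0.462), against 1.73 (1.59 to 1.88) by cDNA fragmentation; it lies outside the naming rule and was chosen after its values were seen.

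The genes whose pattern over the 4 libraries was nearest to that of a member were found by the root mean square difference of log2(RPKM + 1), each centred on its own mean, among 12388 genes with at least 100 reads in all. For Muc13 these were Cul5 (0.017), Arhgef6 (0.036) and Zfp191 (0.043). For Muc4 they were Dtx3 (0.052), Gys1 (0.071) and Oaz2 (0.098), and for Muc1, whose values rest on few reads, Mrps24 (0.044), Trpt1 (0.058) and Arrdc1 (0.063). Muc20 had too few reads. With 4 libraries, many genes can lie this close. The added 1 RPKM also flattens a gene as low as Muc1, so its nearest genes need not share its tissue ratio. Mrps24 was at 13.2, 46.5, 15.1 and 26.8 RPKM, against 0.139, 2.81, 0.220 and 1.29 for Muc1.

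The tissue labels were borne out by markers, and the composition of the libraries differed in other cell types. All 6 markers of small intestinal enterocytes passed the 3-fold rule towards small intestine by both protocols, beside 2.81% and 3.86% of all genes. The colonocyte markers present in both tissues (4 and 5) passed towards colon, beside 3.24% and 6.37%. The 7 goblet markers summed to 16370 and 38350 RPKM by cDNA fragmentation and to 4570 and 10630 in the rRNA-depleted pair. None was at 0. By cDNA fragmentation all 7 were higher in colon, and Agr2 alone gave 3038 and 15260 RPKM. The rRNA-depleted sums differed mostly through Clca3 (443.6 and 4495 RPKM) and Agr2 (104.1 and 1685). Fcgbp was lower in colon in that pair (714.2 and 438.5), and Zg16 was level (1974 and 1980). With the median of ratios 4 of 7 were higher in colon there, beside 6568 of all 13125 genes. The 5 smooth muscle markers were all higher in colon, with sums of 219, 826, 188 and 1762 RPKM, and 4 passed the rule towards colon by each protocol, beside 3.24% and 6.37% of all genes. The 4 adipocyte markers summed to 73.0, 355, 30.1 and 181 RPKM, also higher in colon. The part of these cell types in the higher Muc4 and Muc1 levels of colon was not tested.

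Pancreatic acinar markers went the opposite way by protocol. Of 5 listed, 4 had exon blocks, and their sums were 18.6, 657, 1359 and 294 RPKM. Cela1 alone gave 18.3, 544, 496 and 291 RPKM of these, and in the colon rRNA-depleted library Cpa1, Cpb1 and Pnlip had 2, 9 and 3 reads, against 575, 964 and 1110 in small intestine. Gastric mucous cell markers summed to 0.0833, 5.42, 17.5 and 3.70 RPKM, with 4, 1, 4 and 3 of 6 at 0. Paneth cell markers, a small intestinal type, summed to 7624, 485, 1969 and 340 RPKM, where Ang4 made up 443 and 291 RPKM of the colon sums and was higher in colon in the rRNA-depleted pair (ratio 1.23, 1.07 to 1.40; cDNA-fragmented 0.343, 0.334 to 0.352) but not with the median of ratios, whereas Lyz1 and Mmp7 were lower in colon by both protocols. Lymphocyte markers summed to 37.9, 21.3, 14.4 and 16.5 RPKM, and mesothelial markers to 1.45, 4.37, 4.12 and 5.41. Their part in the mucin levels was not tested.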

How the data were processed

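The authors deposited, for each library, positions, strands and color mismatches of single reads, with tables of exons and junctions. Per the file headers and methods, 35 colors per read had been matched by the authors to RefSeq exons of mm9 with up to 3 mismatches, and reads with several placements were removed. The methods of the published study describe mapping to the whole mm9 genome, which differs from this matching. The deposited position tables carry no unit beyond bases. Exon blocks were joined into condensed genes through the junction table and named from GENCODE M1 (20771 of 20942). A read was given to the block that holds its centre. Blocks shared with a second coding gene (1367) were set apart. RPKM was calculated per 1000000 uniquely placed reads. Reads on junctions were not used, because 86.1% to 90.2% of them had 3 mismatches.

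Intervals were exact Poisson for counts, exact binomial for ratios and Wilson for shares, with 95% coverage, and 0 counts were compared with a floor of 3 reads. Members and lists were chosen with earlier results of these data known. From each list, the genes with the highest and lowest ratio among those with at least 20 reads in both cDNA-fragmented libraries were named. The rule and intervals were tested on simulated counts that held Poisson counting error alone. That test cannot show how they hold under variation between mice or libraries. Sequences were read from the mm9 genome. Python 3.11.15, numpy 2.4.6, pandas 2.3.3, scipy 1.17.1 and pysam 0.24.0 were used.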

Additional observations from a re-analysis of the deposited data

Results flagged for a closer look

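The tissue difference of Muc13 had opposite signs in the protocols. The log2 ratio of colon to small intestine was -0.65 in the cDNA-fragmented pair and 0.16 in the rRNA-depleted pair. The opposite sign depended on the setting. With start points the values were -0.13 and -0.42, and with the median of ratios -0.97 and -0.18, so both pairs then had the same sign. Each value rests on 1 library per tissue, so the difference between the protocols was not tested.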

How the results depend on the processing

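No paired analysis was possible because there is 1 library per tissue and protocol and the animals behind each library are not given. A fit with protocol as a block, which would treat the 2 protocols of a tissue as replicates, was not run. The windows without a near copy, the shared block on the Muc4 strand and the rescaled list counts were added as alternatives after the data had been seen. Of 49 recalculated log2 ratios, 35 stayed within the counting interval of the reported value, 12 moved outside it and 2 turned sign. For Muc13 by cDNA fragmentation (-0.65) the values were -0.70 with at most 1 mismatch, -0.13 with start points, -0.97 with the median of ratios, -0.67 with the sense strand and -0.49 with the last 1000 bases. For Muc13 in the rRNA-depleted pair (0.16) they were -0.42 with start points, -0.18 with the median of ratios and 0.04 with the last 1000 bases. For Muc4 by cDNA fragmentation (2.01) they were 1.82, 1.69 and 2.20 with start points, the median of ratios and the last 1000 bases, and in the rRNA-depleted pair (1.27) they were 0.93, 0.93 and 0.95. Of the numbers of genes past the 3-fold rule, 24 of 28 stayed within 1.5 times. With 0.1 RPKM added, 1169 genes in place of 491 (colon, cDNA-fragmented), 791 in place of 507 (small intestine, rRNA-depleted) and 1490 in place of 836 (colon, rRNA-depleted) passed. With the median of ratios, 470 passed in place of 836, and in both protocols more genes then passed towards small intestine than towards colon. The cause of these shifts was not tested. Levels moved more often, in 55 of 116 recalculations. Ratios of Muc1 and Muc20 that would rest on 0 reads in a tissue were not calculated. Precision is lowest for Muc1 in small intestine (7 and 1 reads) and for Muc20 in all libraries (at most 11 reads).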
